A study of Mus musculus with 24 samples.

Results

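The nuclear lamina and heterochromatin proteins described here are encoded by 10 genes, chosen by name from the 23119 genes of a deposited expression table. They are the lamins Lmna, Lmnb1 and Lmnb2, the lamin B receptor Lbr, the HP1 proteins Cbx1, Cbx3 and Cbx5, and the histone H3 lysine 9 methyltransferases Suv39h2, Setdb1 and Ehmt2. The choice was made with earlier results of these data known, and all 10 had enough expression to be tested. Poly(A) RNA-seq was performed on female JB4/EI7HZ2 mouse embryonic stem cells (mESCs), an F1 hybrid of JF1 and B6 whose X chromosomes carry drug-resistance cassettes, in wild-type (WT) form and as an SmcHD1 knockout (KO) made with CRISPR–Cas9. Both genotypes were taken as mESCs in serum with 2i and LIF, at days 7 and 9 of neurectoderm differentiation as embryoid bodies, and as neural stem cells (NSCs) grown in FGF2 and EGF. The day 7 and day 9 cells and the NSCs came from separate differentiation protocols that both started from mESCs, so that stage and protocol cannot be told apart between day 9 cells and NSCs. Each of the 8 groups had 3 replicate libraries, 24 in all. The study describes the replicates of this line and its differentiation stages as biologically independent, without naming the KO there. WT and KO were 1 line each, so that genotype and line cannot be told apart.

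The nuclear lamina is a meshwork of lamin filaments under the inner nuclear membrane. The inner membrane protein LBR and the A-type lamins are the main tethers that hold heterochromatin at the nuclear edge, and early embryonic cells are known for relying on LBR and B-type lamins with little lamin A/C. Histone H3 lysine 9 methylation is laid down by SUV39H, SETDB1 and G9a (encoded by Ehmt2) enzymes and is read by HP1 proteins, and LBR can bind HP1. SmcHD1 is a noncanonical SMC protein needed to keep the inactive X chromosome silent, and the inactive X is a large block of heterochromatin often found at the nuclear edge.

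The promoters of 4 genes whose levels changed in opposite directions between mESCs and NSCs are shown, namely Lbr against Lmna and Cbx1 against Cbx5. Each sequence is the 250 bases before a RefSeq start site, 5′ to 3′ on the strand of the gene, placed on mm9, the build of the deposited values, by an exact match. Capitals mark CCAAT (the NF-Y box), TTTGAA (the cell cycle homology region) and GGGCGG (the GC box) on either strand.
Lbr, chr1:183772533-183772782, minus strand: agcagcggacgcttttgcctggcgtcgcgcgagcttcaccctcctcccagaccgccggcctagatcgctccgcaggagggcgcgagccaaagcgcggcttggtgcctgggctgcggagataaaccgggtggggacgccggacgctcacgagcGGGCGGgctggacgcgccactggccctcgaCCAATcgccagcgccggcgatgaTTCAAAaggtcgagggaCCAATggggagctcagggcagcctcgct
Lmna, chr3:88307275-88307524, minus strand: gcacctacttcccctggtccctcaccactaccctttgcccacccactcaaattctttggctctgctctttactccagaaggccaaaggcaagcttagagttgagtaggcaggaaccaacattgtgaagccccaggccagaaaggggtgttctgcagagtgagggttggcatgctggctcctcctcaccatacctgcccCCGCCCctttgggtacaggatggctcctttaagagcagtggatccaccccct
Cbx1, chr11:96650199-96650448, plus strand: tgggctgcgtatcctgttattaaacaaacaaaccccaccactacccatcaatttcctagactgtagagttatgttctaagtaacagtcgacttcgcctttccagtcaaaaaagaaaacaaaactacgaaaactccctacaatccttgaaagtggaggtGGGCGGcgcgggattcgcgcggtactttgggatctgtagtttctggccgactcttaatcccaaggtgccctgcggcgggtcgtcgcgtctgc
Cbx5, chr15:103070284-103070533, minus strand: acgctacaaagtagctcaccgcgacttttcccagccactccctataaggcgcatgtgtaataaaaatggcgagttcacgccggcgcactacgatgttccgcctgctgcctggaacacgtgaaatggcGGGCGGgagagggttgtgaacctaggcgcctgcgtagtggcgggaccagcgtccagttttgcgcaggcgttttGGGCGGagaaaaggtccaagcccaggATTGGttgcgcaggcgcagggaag
The Lbr window held CCAAT at 2 places, TTTGAA at 1 and GGGCGG at 1. The Cbx5 window held CCAAT at 1 place and GGGCGG at 2, and the Lmna and Cbx1 windows held GGGCGG at 1 place each. Lmna and Cbx5 also had a second window that is not printed. That of Lmna (chr3:88297235-88297484) held CCAAT at 1 place and GGGCGG at 0. That of Cbx5 (chr15:103045784-103046033) held CCAAT at 0 places and GGGCGG at 1. RefSeq promoters were matched for 9 of the 10 genes, in 14 windows with the second starts of some genes. Of these 14 windows, 11 held GGGCGG, 4 held CCAAT and 1 held TTTGAA. Over all 32851 RefSeq promoters of the same length the shares were 32.7% for GGGCGG, 33.8% for CCAAT and 16.0% for TTTGAA. The E2F motifs TTTGGCGC and TTTCCCGC, also searched on both strands, were in 1 window (of Cbx3) and in 0 windows, against 0.417% and 0.895% of all promoters. No 2 of these motifs overlapped in the windows of the members, and a match is a description of letters only.

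The libraries matched their labels in the main markers. Smchd1 fell to between 1.82 and 4.40 FPKM (fragments counted per transcript length and library size) in the 12 KO libraries from between 12.96 and 26.4 in WT libraries. Pluripotency markers summed to between 2333 and 2857 FPKM in mESCs and to at most 6.61 in NSCs. Neural stem cell markers summed to 5204–6685 FPKM in WT NSCs and to 3699–4580 in KO NSCs, without overlap, and 1 of its 4 genes was called lower in KO (Vim). The neurectoderm list summed in KO to 107.6–114 FPKM against 57.5–76.0 at day 7, with 2 of 4 genes called higher, and to 114–139 against 63.3–101 at day 9, with 3 of 4. Other lineages differed between WT and KO libraries at days 7 and 9. The mesoderm list was at 56.7 to 154.6 FPKM in WT against 1.87 to 3.33 in KO at day 7, and the mesenchyme list at 29.2 to 79.7 against 10.7 to 17.0 at day 9. The endoderm list was at 20.1 to 51.1 FPKM in WT against 0.496 to 1.47 in KO at day 7. The mesoderm list was at 15.7 to 43.4 against 3.93 to 15.0 at day 9. In each of these 2 cases, 2 of 2 tested genes were called lower. Their part in the KO differences of the members was not tested. The neuron list summed to 110.3–150.3 FPKM in WT and 151.5–181.3 in KO at day 7, to 488–535 and 262–365 at day 9, and to 6.81–27.0 and 10.4–13.8 in NSCs, where 3 of its 3 tested genes were called lower than at day 9 in each genotype, and its part in the differences between NSCs and day 9 cells was not tested. Read depth, judged from the worth of 1 read in low genes, differed by at most 1.42-fold between libraries, while read numbers were not used here.

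Changes were tested with limma on log2(FPKM + 1) over 12105 genes, and a gene was called at a Benjamini-Hochberg adjusted p under 0.05. In bulk RNA, fewer cells of a type and less RNA per cell cannot be told apart. FPKM are values per transcript length, so levels can be compared between genes. In WT mESCs the order from high to low was Cbx3 at 220 ± 23.9 FPKM (mean ± SD, n = 3 here and below), Lmnb1 at 204 ± 57.1, Cbx1 at 133 ± 12.9, Lbr at 92.4 ± 8.18, Ehmt2 at 55.2 ± 8.52, Cbx5 at 53.0 ± 6.17, Lmnb2 at 37.5 ± 4.24, Setdb1 at 30.6 ± 5.17, Suv39h2 at 9.43 ± 1.14 and Lmna at 9.13 ± 1.91. The order of Cbx3 and Lmnb1, of Ehmt2 and Cbx5, and of Suv39h2 and Lmna changed between libraries, so that these neighbours did not differ beyond their spread. Lmnb2 was above Setdb1 in each of the 3 libraries, although their ranges overlapped. In WT NSCs Cbx3 (213 ± 56.5) and Lmnb1 (162 ± 35.1) were still the highest, but Cbx5 (83.7 ± 4.40) and Ehmt2 (67.0 ± 1.67) stood above Cbx1 (56.4 ± 7.09), and Lbr (20.8 ± 8.71), Lmnb2 (20.7 ± 5.38) and Lmna (15.4 ± 6.33) overlapped.

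**Figure D1:**
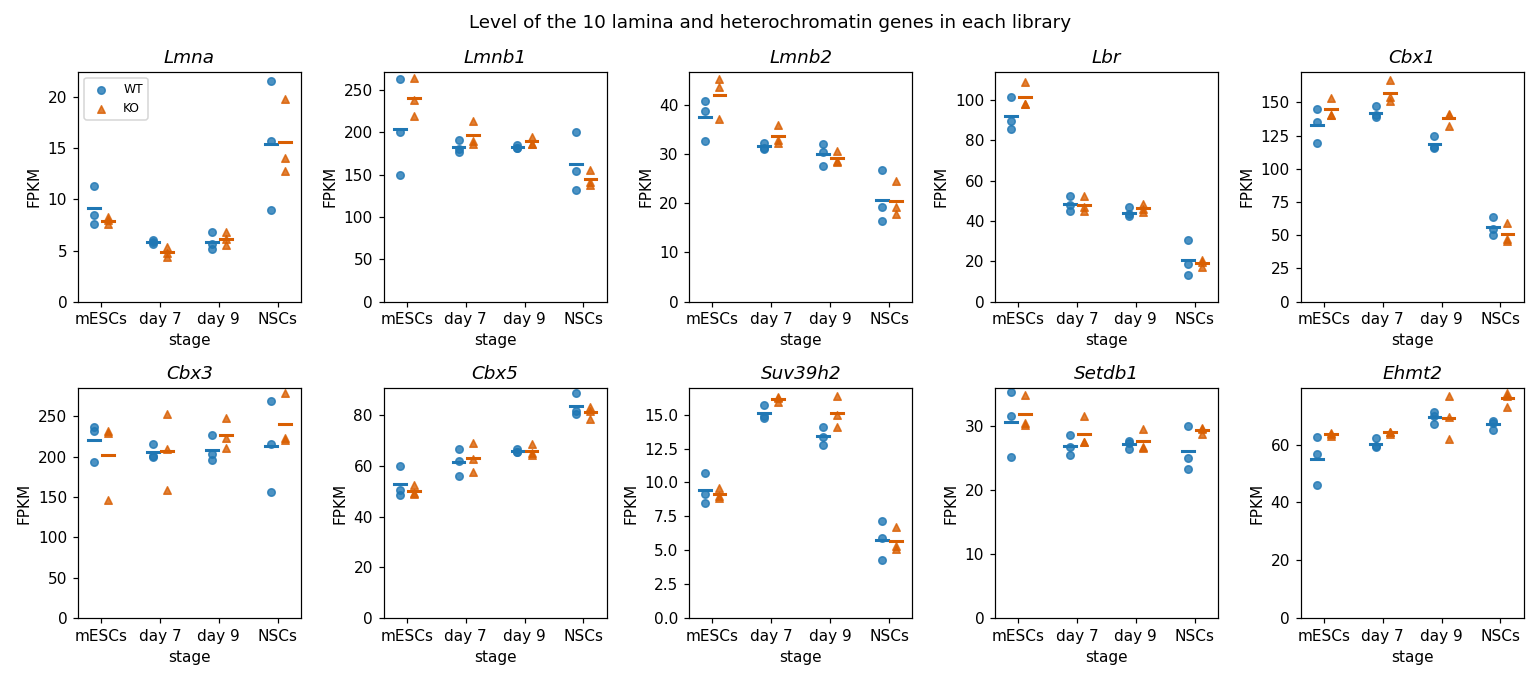
Level in FPKM of each of the 10 genes (vertical axis, from 0) at each stage (horizontal axis). Each point is 1 library, circles for WT and triangles for KO, and bars are the means of 3 libraries. WT and KO points lie near each other at every stage, while Lbr, Cbx1 and Suv39h2 are lowest and Cbx5 and Lmna highest in NSCs.

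The question of whether loss of SmcHD1 altered the RNA levels of these genes was addressed first, and protein was not measured. No member was called between KO and WT at any stage. With limma 0 of 10 were called in mESCs, where 0.529% of all tested genes were, 0 at day 7 (3.68% of all), 0 at day 9 (6.68%) and 0 in NSCs (6.02%). At an unadjusted p under 0.05 the counts were 1, 0, 1 and 0. Of the 40 differences, 26 were above 0 and 38 had a 95% confidence interval that covered 0. The intervals reached at their lowest from 0.629 times the WT value of FPKM + 1 (Lmna at day 7) and at their highest to 1.51 times (Cbx3 in NSCs), so that changes within these bounds are not excluded for those genes.

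Ehmt2, which encodes the H3K9 mono- and dimethyltransferase G9a, had the lowest p for a KO difference. It was at 62.9, 64.0 and 63.7 FPKM in KO mESCs and at 46.0, 62.8 and 56.9 in WT mESCs. All 3 KO values were above the WT values, the second WT library by a narrow gap. The difference was 0.21 on the log2 scale (95% CI 0.02 to 0.40, limma adjusted p = 0.587). In NSCs the values were 78.0, 76.9 and 73.2 FPKM in KO against 68.3, 67.5 and 65.1 in WT, without overlap and with a difference of 0.18 (95% CI -0.01 to 0.37, adjusted p = 0.320). Averaged over the 4 stages, the Ehmt2 difference was 0.12 (95% CI 0.02 to 0.21, adjusted p = 0.127), and 0 of 10 members were called in this average, where 8.27% of all tested genes were. Without the second WT mESC library, the lone one near the KO values, Ehmt2 would be called in the average (0.14, adjusted p = 0.0401). This was 1 of 29 alternative settings, over which the average ran from 0.09 to 0.14 with a highest adjusted p of 0.398. The mESC difference ran from 0.09 to 0.31 over 12 settings and was called in 0.

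Cbx1, which encodes HP1β, was at 141, 132 and 141 FPKM in KO day 9 cells and at 125, 117 and 116 in WT day 9 cells. The libraries did not overlap, and the difference was 0.21 (95% CI 0.0001 to 0.42, limma adjusted p = 0.289). Over all members, the 2 genotypes were separated without overlap for Ehmt2 in mESCs and in NSCs, for Lmna, Cbx1, Suv39h2 and Ehmt2 at day 7, and for Lmnb1, Cbx1 and Suv39h2 at day 9. These were 1 of 10 members in mESCs against 11% of all tested genes, 4 at day 7 against 24%, 3 at day 9 against 32.3% and 1 in NSCs against 16.7%. An exact permutation test of 3 against 3 libraries cannot give a p under 0.1.

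Lmnb1, which encodes lamin B1, had the largest estimated difference in mESCs in the main fit, 0.27 (95% CI -0.04 to 0.58), with an adjusted p of 0.742. The estimate ran from 0.06 to 0.47 over 12 alternative settings and was called in 0. The WT mESC libraries of Lmnb1 spread from 149 to 263 FPKM and its KO mESC libraries from 220 to 265. The effect of the KO at a later stage was also compared with that in mESCs by an interaction term. Here 0 of 10 members were called at day 7 (1.68% of all tested genes), 0 at day 9 (2.68%) and 0 in NSCs (2.26%), and 0 at an unadjusted p under 0.05 in each. The NSC interaction of Lmnb1 had the lowest p of its comparison (-0.41, 95% CI -0.85 to 0.03, adjusted p = 0.398). It ran from -0.61 to -0.21 over 18 alternative settings, with limma adjusted p from 0.0791 to 0.719, and was called in 0.

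**Figure D2:**
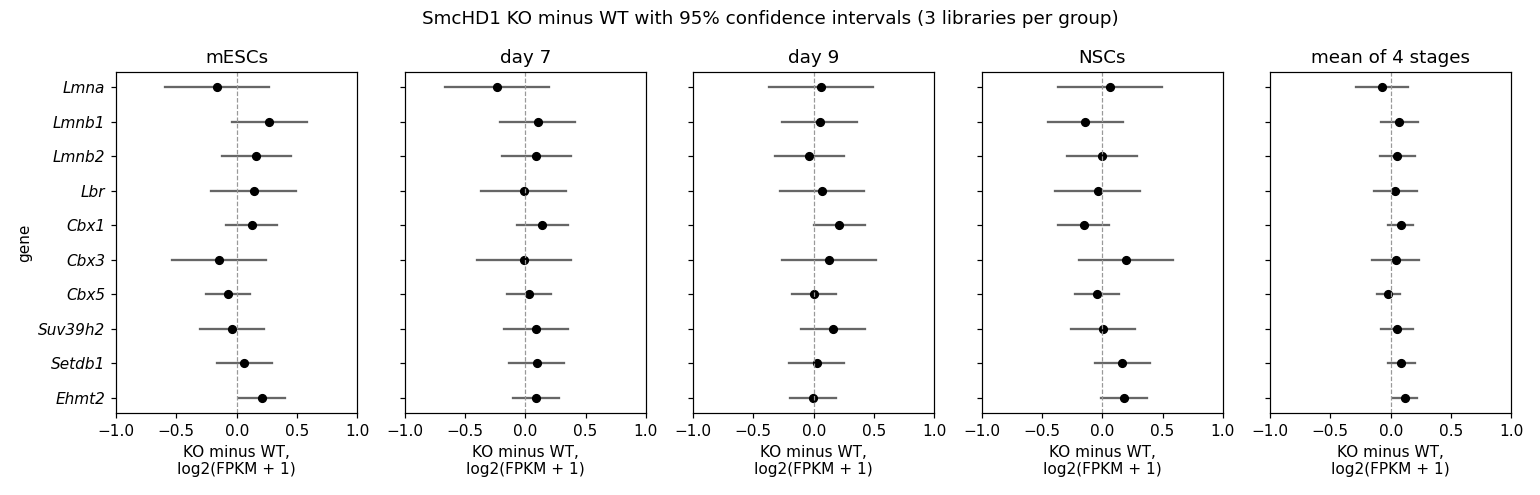
Difference between SmcHD1 KO and WT in log2(FPKM + 1) (horizontal axis) for each gene (vertical axis) at each of the 4 stages and as their mean, from 3 libraries per group. Points are limma estimates and lines 95% confidence intervals, and 38 of the 40 intervals of the single stages cover 0.

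In contrast to genotype, comparisons with mESCs called some members at every stage, in WT 4 of 10 at day 7, 5 at day 9 and 7 in NSCs. Against mESCs of the same genotype, 2 members were higher (29.1% of all tested genes were) and 2 lower (30.2%) in WT at day 7, 3 higher (36.4%) and 2 lower (35.1%) in WT at day 9, and 3 higher (36.9%) and 4 lower (38.3%) in WT NSCs. In KO cells 2 were higher (29.5%) and 2 lower (31.8%) at day 7, 2 higher (35.7%) and 3 lower (35.6%) at day 9, and 3 higher (37.7%) and 5 lower (38.2%) in NSCs. These counts of 2 to 5 of 10 in each direction are not far from the shares of all genes. The members called were shared by the genotypes, in the same direction, for 4 genes at day 7, for 3 at day 9 and for 7 in NSCs. Members called in only one genotype were Lmna and Ehmt2 in WT at day 9, Lmnb1 and Lmnb2 in KO at day 9 and Lmnb1 in KO NSCs. The Lmnb1 call in KO at day 9 was kept in only 4 of 12 alternative settings, with a highest adjusted p of 0.748. None of the interaction terms of these genes was called, so a difference between the genotypes was not shown.

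Between days 7 and 9, 0 members were called in WT (33.8% of all tested genes were) and 0 in KO (30.6%), with 2 and 0 at an unadjusted p under 0.05. In NSCs against day 9 cells, which came from another protocol, 2 were higher (24.8% of all) and 4 lower (30.3%) in WT, and 2 higher (27.2%) and 5 lower (32.4%) in KO. Lmna, Lbr, Cbx5 and Suv39h2 were called both in day 7 cells against mESCs and in NSCs against day 9 cells, in each genotype.

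**Figure D3:**
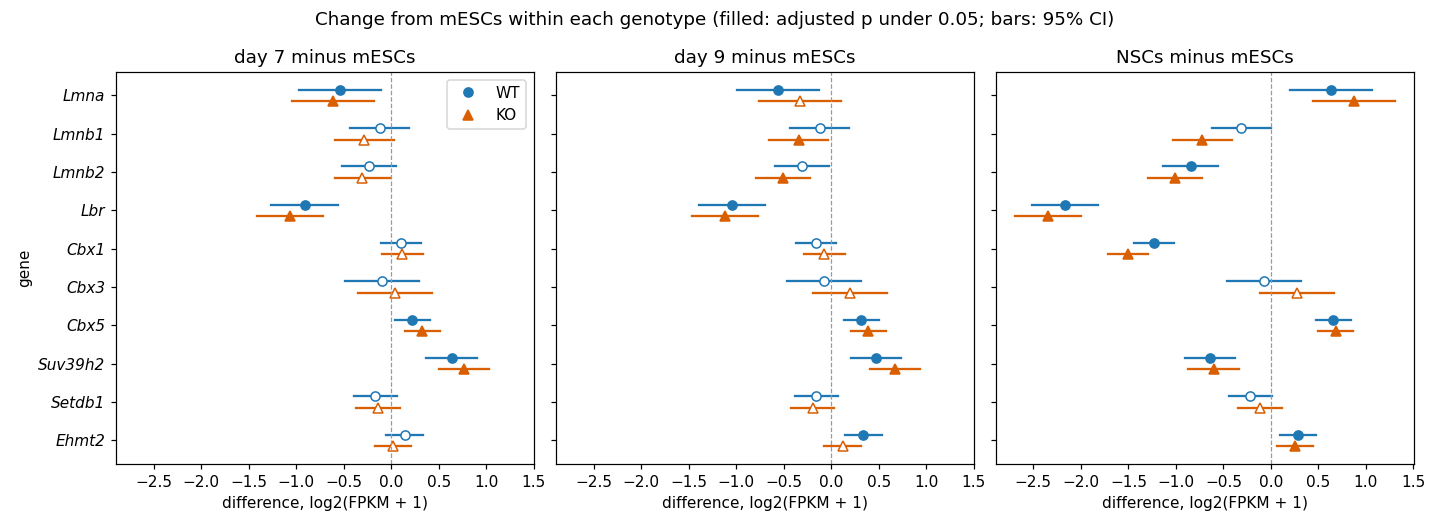
Change from mESCs of the same genotype in log2(FPKM + 1) (horizontal axis) for each gene (vertical axis) at day 7, at day 9 and in NSCs, with 95% confidence intervals. Filled symbols have an adjusted p under 0.05. Lbr is lower at all 3 stages in both genotypes, and Cbx1 is called in NSCs and at neither day 7 nor day 9.

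Lbr (chr1:183745446-183772532, minus strand, in mm9), whose protein tethers heterochromatin and also has sterol reductase activity, showed the largest change among the 10 genes. In WT it was at 101.5, 85.8 and 89.7 FPKM in mESCs. At day 7 it was at 52.4, 48.0 and 45.1 FPKM and by day 9 at 42.5, 43.3 and 46.7, while NSC libraries held 30.3, 13.3 and 18.8. The mESC libraries lay above all others and the NSC libraries below all others. The fall from mESCs was 0.91 on the log2 scale at day 7 (SE 0.17, adjusted p = 8.24e-05), 1.04 at day 9 (adjusted p = 1.06e-05) and 2.17 in NSCs (adjusted p = 1.26e-10), where the mean level was 4.44-fold lower. In KO cells Lbr was at 97.9, 98.2 and 109 FPKM in mESCs and at 20.9, 17.3 and 19.5 in NSCs. The KO fall of 2.35 (SE 0.17, adjusted p = 2.98e-11) came to a 5.30-fold lower mean level.

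Lmna (chr3:88285071-88307254, minus strand), whose transcripts encode lamins A and C, was in WT called lower at days 7 and 9 and higher in NSCs than in mESCs. In WT it was at 7.60, 11.3 and 8.52 FPKM in mESCs. At day 7 it was at 5.85, 6.05 and 5.69 FPKM and by day 9 at 6.79, 5.61 and 5.14, while NSC libraries held 21.6, 8.97 and 15.7. The day 7 and day 9 libraries lay below those of mESCs, whereas the second NSC library overlapped with mESCs. The fall was 0.55 at day 7 (SE 0.21, adjusted p = 0.0286) and 0.56 at day 9 (adjusted p = 0.0211), and the rise from mESCs to NSCs was 0.63 (adjusted p = 0.00886). The rise was no longer called without the first WT NSC library, the highest one (0.36, adjusted p = 0.0937), or with those groups fitted alone (adjusted p = 0.0956). The day 7 fall was lost without the second WT mESC library (-0.40, adjusted p = 0.141), without any 1 of the 3 WT day 7 libraries (-0.53 to -0.56, adjusted p from 0.0516 to 0.0671) and with libraries scaled to the same sum of FPKM (-0.33, adjusted p = 0.202). The day 9 fall was lost in 4 of 12 settings, with a highest adjusted p of 0.368.

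In KO cells the Lmna rise was clearer, from 7.57, 8.27 and 7.95 FPKM in mESCs to 12.8, 14.1 and 19.9 in NSCs, without overlap (0.87, SE 0.21, adjusted p = 0.000696). The KO difference from mESCs was -0.62 at day 7 (limma adjusted p = 0.0138), lost with libraries scaled to the same sum (adjusted p = 0.106). At day 9 it was -0.33 and not called (adjusted p = 0.162). Lmna was higher in NSCs than in day 9 cells by 1.19 in WT (adjusted p = 4.76e-05) and by 1.20 in KO (adjusted p = 3.77e-05), and both differences were called in all 12 alternative settings. Mesenchymal cells are rich in lamin A/C. The summed level of the mesenchyme list was 10.4–32.2 FPKM in WT NSCs against 3.16–5.73 in WT mESCs and 16.3–39.1 in KO NSCs against 3.16–3.58 in KO mESCs. Of its 5 tested genes, 1 was called higher (Twist1) and 1 lower (Pdgfrb) in WT NSCs, with a median difference of -0.23, and 1 higher (Twist1) and 0 lower in KO NSCs, with a median of 0.05. The collagen gene Col1a1 was at a mean of 0.413 FPKM in WT NSCs and 1.01 in KO NSCs, and Col1a2 at 0.0505 and 0.127. The list's sum was highest at day 9 in WT, where Lmna was at its low level, and in NSCs in KO, where Lmna was highest. Its part in the NSC rise was not tested.

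The RNA balance of the 2 tethers was also read as the ratio of Lbr to Lmna within each library, which no scaling of a library can change. The ratio ran from 7.62 to 13.4 in WT mESCs and from 11.9 to 13.7 in KO mESCs. At day 7 it was 7.93–8.95 in WT and 9.50–10.7 in KO, without overlap. Of single tested genes 24% separated the genotypes at day 7, and no share over ratios was computed. At day 9 the ratio was 6.26–9.09 in WT and 7.18–8.07 in KO. It was 1.20–1.48 in WT NSCs and 0.980–1.63 in KO NSCs. NSC libraries were below all libraries of the other stages in both genotypes.

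**Figure D4:**
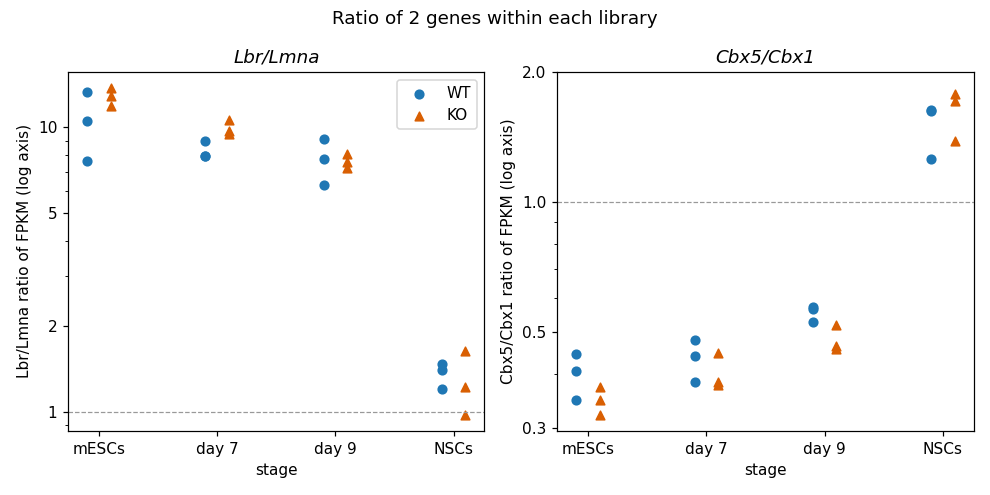
Ratio of Lbr to Lmna and of Cbx5 to Cbx1 within each library (vertical axes, logarithmic) by stage, as ratios of FPKM. Circles are WT and triangles KO libraries, and the dashed line marks equal levels. NSC libraries stand apart from all others in both panels, near 1 for Lbr to Lmna and above 1 for Cbx5 to Cbx1.

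Of the B-type lamins, Lmnb2 fell in both genotypes and Lmnb1 was called only in KO. Lmnb2 (chr10:80364108-80380990, minus strand) was at 32.7, 40.8 and 38.8 FPKM in WT mESCs and at 26.7, 16.3 and 19.2 in WT NSCs. It fell without overlap, by 0.84 (SE 0.14, adjusted p = 1.04e-05), and in KO by 1.01 (adjusted p = 8.89e-07). Lmnb1, on chromosome 18, was at 149, 263 and 200 FPKM in WT mESCs and at 200, 131 and 155 in WT NSCs, with overlap and a difference of -0.31 (adjusted p = 0.0635). In KO it was at 220, 265 and 238 FPKM in mESCs and at 156, 141 and 138 in NSCs, a fall of 0.73 (adjusted p = 0.000155). Lmnb1 would be called lower in WT NSCs without the first WT mESC library, the lowest of its group (-0.52, adjusted p = 0.00174), or without the first WT NSC library (-0.48, adjusted p = 0.00613). With libraries scaled to the same sum of FPKM the WT estimate turned to 0.14 (adjusted p = 0.432). The KO fall was lost with libraries scaled to the same sum of FPKM (-0.20, adjusted p = 0.231).

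Lmnb1 exceeded Lmna in every library. The ratio of Lmnb1 to Lmna was 19.6–23.5 in WT mESCs and 29.0–31.99 in KO mESCs, and 29.7–32.6 in WT and 39.7–42.4 in KO at day 7, without overlap at either stage. Of single tested genes, 11% in mESCs and 24% at day 7 separated the genotypes, and no share over ratios was computed. At day 9 the ratio overlapped, at 26.7–35.2 in WT and 27.5–35.4 in KO. It was 9.28–14.7 in WT NSCs and 6.96–12.2 in KO NSCs, so that B-type lamin RNA remained the more abundant at every stage measured.

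Among the HP1 genes, Cbx1 and Cbx5 moved in opposite directions and Cbx3 in neither. Cbx1 (chr11:96650450-96669954, plus strand) was at 120, 135 and 145 FPKM in WT mESCs and at 50.2, 54.8 and 64.1 in WT NSCs. It fell by 1.23 (SE 0.10, adjusted p = 3.51e-10), or 2.37-fold, and in KO by 1.51 (adjusted p = 1.07e-11), or 2.86-fold. At day 9 WT libraries held 116 to 125 FPKM. With libraries scaled to the same sum of FPKM, Cbx1 would be called higher at day 7 in WT (0.33, adjusted p = 0.0240) and KO (0.34, adjusted p = 0.0213), and its NSC fall was called under that scaling too.

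Cbx5 (chr15:103021977-103070247, minus strand), which encodes HP1α, was at 48.4, 60.0 and 50.5 FPKM in WT mESCs, at 66.9, 62.0 and 56.2 at day 7, at 65.5, 66.6 and 65.6 at day 9 and at 81.8, 88.8 and 80.7 in NSCs. The day 7 libraries overlapped with mESCs and the later ones did not. The rise was 0.22 at day 7 (SE 0.09, adjusted p = 0.0382), 0.32 at day 9 (adjusted p = 0.00309) and 0.66 in NSCs (adjusted p = 7.57e-07). In KO NSCs it was 0.68 (adjusted p = 3.88e-07). The WT day 7 call was lost in 5 of 12 alternative settings, with a highest adjusted p of 0.169, while the WT and KO calls at day 9 and in NSCs were kept in all 12.

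The ratio of Cbx5 to Cbx1 within a library was 0.348–0.444 in WT mESCs and 0.321–0.373 in KO mESCs. It was 0.526–0.571 in WT and 0.457–0.519 in KO at day 9, and reached 1.26–1.63 in WT NSCs and 1.38–1.77 in KO NSCs. Cbx5 RNA was therefore the less abundant of the pair in every mESC, day 7 and day 9 library and the more abundant in every NSC library.

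Cbx3 (chr6:51420615-51433703, plus strand), which encodes HP1γ, was called at no stage in either genotype as deposited. WT libraries ranged from 193 to 237 FPKM in mESCs and from 156 to 269 in NSCs. The difference was -0.08 in WT (95% CI -0.47 to 0.31) and 0.27 in KO (95% CI -0.12 to 0.66). With libraries scaled to the same sum of FPKM it would be called higher in KO day 9 cells (0.48, adjusted p = 0.0203) and KO NSCs (0.79, adjusted p = 0.000315). Single libraries stood below the others of their group, at 146 FPKM in the third KO mESC library, 158 in the first KO day 7 library and 156 in the third WT NSC library. RefSeq lists 6 pseudogenes named after Cbx3, and how reads that match several places were counted is not given in the sources used here, so that Cbx3 levels are uncertain.

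Among the methyltransferases, Suv39h2 had the pattern opposite to that of Lmna, with its highest level in neurectoderm. SUV39H2 places H3K9 trimethylation at pericentric heterochromatin, and its X-linked partner Suv39h1 was removed with the reads of the X. In WT, Suv39h2 was at 8.46, 9.15 and 10.7 FPKM in mESCs. At day 7 it was at 14.8, 14.9 and 15.7 FPKM and by day 9 at 14.1, 13.4 and 12.8, while NSC libraries held 7.15, 4.27 and 5.88. No library of one of these stages overlapped with mESCs, those of days 7 and 9 being higher and those of NSCs lower. The rise was 0.63 at day 7 (SE 0.13, adjusted p = 0.000218) and 0.47 at day 9 (adjusted p = 0.00242), and the difference in NSCs was -0.64 against mESCs (adjusted p = 0.000112) and -1.11 against day 9 (adjusted p = 1.75e-07).

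KO libraries showed the same order for Suv39h2, with 8.99, 8.86 and 9.56 FPKM in mESCs, 16.2, 16.3 and 15.9 FPKM by day 7 and, in NSCs, 5.10, 5.34 and 6.68 FPKM. The changes were 0.76 at day 7 (adjusted p = 2.47e-05) and -0.60 in NSCs (adjusted p = 0.000213). With libraries scaled to the same sum of FPKM, the NSC falls against mESCs were -0.25 in WT (adjusted p = 0.114) and -0.14 in KO (adjusted p = 0.362), and no longer called, whereas the lower level against day 9 cells was called in all 12 settings in both genotypes. Suv39h2 is at chr2:3341403-3392258 in the deposited values and at chr2:3373087-3392303, minus strand, in the gene annotation. It shares 357 annotated exonic bases with Dclre1c on the opposite strand. Since the sources used here do not say that counting used strand, reads of the pair cannot be told apart there.

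Ehmt2 (chr17:35035444-35050992, plus strand) was at 71.3, 70.0 and 67.2 FPKM at day 9 in WT and at 68.3, 67.5 and 65.1 in NSCs, all above its mESC libraries. The rise was 0.34 at day 9 (SE 0.09, adjusted p = 0.00257) and 0.29 in NSCs (adjusted p = 0.00819), and in KO NSCs it was 0.25 (adjusted p = 0.0166). The WT NSC call was lost without the first WT mESC library (0.16, adjusted p = 0.0881) and with those groups fitted alone (adjusted p = 0.124). Setdb1 is at chr3:95119174-95161124 in the deposited values and at chr3:95127447-95161124, minus strand, in the gene annotation. This gene, which encodes the enzyme that TRIM28 recruits to retrotransposons and imprinted loci, was called in no stage comparison. Its libraries ranged from 25.1 to 35.3 FPKM in WT mESCs and from 23.3 to 30.1 in WT NSCs. The difference was -0.22 in WT (95% CI -0.45 to 0.01) and -0.11 in KO (95% CI -0.34 to 0.12). Setdb1 would be called lower in WT NSCs without the first WT mESC library (-0.35, adjusted p = 0.00552) or the first WT NSC library (-0.32, adjusted p = 0.0139). With libraries scaled to the same sum of FPKM the WT estimate turned to 0.22 (adjusted p = 0.127), and Setdb1 would be called higher in KO NSCs (0.39, adjusted p = 0.00778). Setdb1 shares 64 exonic bases with Lass2 on the opposite strand. The ratio of Ehmt2 to Setdb1 rose from 1.78–1.83 in WT mESCs to 2.27–2.89 in WT NSCs without overlap.

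In the scaling of the deposited values the median change of all tested genes was between -0.07 and 0.02 in the 10 stage comparisons. Sums of FPKM were higher in mESCs than in NSCs, and scaling to the same sum would shift the median by 0.19, 0.32 and 0.37 in WT day 7 cells, day 9 cells and NSCs against mESCs, and by 0.18, 0.24 and 0.43 in KO. The share of calls that were higher would go from 49.1% to 66.3%, from 50.9% to 69.1% and from 49.1% to 66.2% in WT. In KO it would go from 48.1% to 63.3%, from 50.1% to 64.0% and from 49.7% to 68.3%. Between KO and WT the day 9 share would go from 38.6% to 22.7% and the NSC share from 42.2% to 54.4%. Changes in the text are relative to the deposited scaling. Under both, Lbr was called lower at every stage, Cbx1 and Lmnb2 lower in NSCs, and Cbx5 and Lmna higher in NSCs, in each genotype.

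Single libraries stood at one end of their group for many members in 2 of the 8 groups. Among WT NSCs the first library held the highest value for 8 of 10 members, and among WT mESCs the first library held the lowest value for 9 of 10. In the other groups no library held the highest or the lowest value for more than 7. Cycling-cell markers, which mark proliferating cells, summed to between 407 and 569 FPKM in WT NSCs and to between 626 and 710 in WT mESCs, with 3 of 6 genes called lower. They summed to 463–495 in KO NSCs and 697–729 in KO mESCs, with 5 of 6 called lower and 1 higher, and their part in these changes was not tested. Over all 24 libraries the Pearson correlation of log2(FPKM + 1), given as a description of points that share stage and scaling, was 0.94 for Lbr and Lmnb2 and -0.94 for Lbr and Cbx5. Lmna and Suv39h2 had -0.81 over the libraries and 0.83 after the mean of each group was taken off, so that they moved apart between stages and together within groups. Lmnb1 and Setdb1 had 0.94 within groups, and 11 of the 45 pairs of members had a value below 0 there.

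The genes outside the set whose pattern over the 24 libraries was most like that of Lmna were Kifc3 (r = 0.94), Fnbp1 (0.94) and Epn2 (0.93). Those most like Lmnb1 were Nup50 (0.96), Sf1 (0.92) and Dhx9 (0.91), and those most like Suv39h2 were Podxl (0.97), Lin28b (0.97) and Fubp1 (0.97).

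A wider list of 55 genes of the lamina, of H3K9 methylation and silencing, and of H3K9 erasers and H4K20 methylation was read in the same fit, and 47 were tested. The others were X-linked or, for Syne1, Syne3 and Kdm4d, under the filter on low values. Against WT mESCs, 11 of the 47 were higher (29.1% of all tested genes were) and 22 lower (30.2%) at day 7, 14 higher (36.4%) and 23 lower (35.1%) at day 9, and 15 higher (36.9%) and 24 lower (38.3%) in NSCs, with a median difference in NSCs of -0.42 against -0.01 for all genes. Of 22 tested genes of H3K9 methylation and silencing, 7 were higher and 12 lower in WT NSCs, and of 14 tested lamina genes 4 were higher and 5 lower. Of 11 tested genes of H3K9 erasers and H4K20 methylation, 4 were higher and 7 lower, all to be read against the same 36.9% and 38.3%.

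Hp1bp3, which encodes a histone H1-like heterochromatin protein, rose from 13.1–15.7 FPKM in WT mESCs to 29.1–31.3 at day 7, 64.3–72.0 at day 9 and 92.3–96.0 in NSCs, a 6.71-fold higher mean level (2.67, SE 0.08, adjusted p = 1.16e-17). Phf2, which encodes an H3K9 demethylase, rose by 1.81 at day 9 (adjusted p = 1.40e-12) and by 2.83 in NSCs, from 3.07–4.53 to 30.6–34.8 FPKM (adjusted p = 3.90e-16). Pphln1, of the HUSH silencing complex, rose by 1.22 at day 7 (adjusted p = 2.35e-07). These 3 genes had no overlap between the stages compared.

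The largest falls were those of Zfp57, which encodes a zinc finger protein that guides TRIM28 and SETDB1 to imprinted loci. It was at 151.1 to 239.4 FPKM in WT mESCs, 31.2 to 39.0 at day 7, 28.9 to 32.6 at day 9 and 7.98 to 11.3 in NSCs, and fell by 4.26 in NSCs (SE 0.17, adjusted p = 1.14e-15). Morc3, which encodes a chromatin ATPase, fell by 1.74 at day 9 (adjusted p = 8.21e-12) and by 2.41 in NSCs (adjusted p = 1.87e-14). Lemd3, which encodes the inner nuclear membrane protein MAN1, fell by 1.41 at day 7 (adjusted p = 2.13e-08), from 7.98–10.7 to 2.64–3.47 FPKM.

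Between KO and WT, 1 of 47 was called in day 9 cells (6.68% of all tested genes were), 1 in NSCs (6.02%) and 1 in the average of the stages (8.27%), with 0 by limma in mESCs (0.529%) and 0 at day 7 (3.68%), where 2 and 3 had an unadjusted p under 0.05. Sun2, which encodes an inner membrane protein of the LINC complex, was lower in KO at day 9, at 4.20–7.33 against 7.70–11.6 FPKM (-0.59, SE 0.16, adjusted p = 0.0272). This call was lost with those groups fitted alone (adjusted p = 0.0932), and without the second WT day 9 library (-0.44, adjusted p = 0.223), the third (-0.63, adjusted p = 0.0636) or the first KO day 9 library (-0.40, adjusted p = 0.231). At day 9 in KO, 4 of 5 tested mesenchyme genes and 1 of 2 tested endoderm genes were called lower, the latter list summing to 2.68–11.6 against 27.2–50.0 FPKM, and 3 of 4 neurectoderm genes were called higher. Their part in the Sun2 difference was not tested.

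Zfp57 was lower in KO NSCs, at 4.41–7.28 against 7.98–11.3 FPKM (-0.63, SE 0.17, adjusted p = 0.0253), and in the average of the stages (-0.32, SE 0.08, adjusted p = 0.0199). The NSC call was lost without the third WT NSC library (-0.50, adjusted p = 0.135), the first KO NSC library (-0.49, adjusted p = 0.129) or the second (-0.61, adjusted p = 0.0823), with libraries scaled to the same sum of FPKM (-0.59, adjusted p = 0.0853) and with those groups fitted alone (adjusted p = 0.291). The average was called in every setting run. The neural stem cell markers had 1 of 4 called lower in KO NSCs, with a median of -0.36, and their part in the Zfp57 difference was not tested.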

How the data were processed

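Stranded mRNA libraries were sequenced as single reads. Per the labels and the methods of the study, the authors trimmed reads with Trim Galore 0.6.6, mapped them to mm9 with TopHat2 2.1.1, removed reads from ribosomal RNA and the X chromosome, and computed the deposited FPKM values with Cuffdiff. The library normalization and whether counting used strand are not given in the sources used here. Of 36 FPKM columns, 24 were assigned to the samples and 12 were not used. Genes on X or Y and 1 failed estimate were left out, and the 12105 genes whose mean over the libraries reached 1 FPKM were tested on log2(FPKM + 1) with limma 3.58.1 in R 4.3.3, with 8 group means, a trend and robust variance, and Benjamini-Hochberg adjustment. Adjusted p-values in the text are from that fit unless a setting is named. The scripts were tested on simulated data.

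The members and lists were chosen with earlier results of these data known. The wider list names, for each comparison of a stage with WT mESCs, the 2 called genes that rose most and the 2 that fell most, and every gene called between KO and WT. Same-numbered WT and KO libraries deviated together in mESCs (r of 0.29, 0.44 and 0.14) and NSCs (0.34, 0.18 and 0.24), at 0.10 or below at days 7 and 9, and the numbering comes from the sample titles. No fit paired them within a stage.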

Additional observations from a re-analysis of the deposited data

How the results depend on the processing

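Each comparison was repeated with a pseudocount of 0.1, without the filter on low values, with libraries scaled to the same sum or by median ratios, with the replicate block, with only the groups compared, and without each replicate in turn. The number of members called between WT day 9 and WT day 7 went from 0 to 1 with the same sum (Ehmt2), 1 with median ratios (Cbx1), 1 with the replicate block (Cbx1, -0.26, adjusted p = 0.0409) and 2 with only the groups compared. Without single replicates the count was 0 to 1 for the mean KO difference, 2 to 5 for WT day 7 and 4 to 8 for WT day 9 against mESCs, the 8 without the first WT mESC library. Setdb1 in KO NSCs against KO mESCs turned from -0.11 to 0.39 with the same sum. The replicate block also ended the Lmnb1 call in KO day 9 cells (adjusted p = 0.0579) and changed no other member call. This block gave each replicate number 1 effect shared by all 8 groups, so it could not account for deviations shared only within a stage. Of differences not called, 33 of 124 changed sign with the same sum, which moves all genes of a library by the same factor. Without single replicates 87 of 1151 changed sign. The causes were not tested. Over all genes the count called between KO and WT in mESCs went from 64 to 164 without the filter, 42 with the same sum and 1 with only the groups compared. The day 9 count went from 809 to 1221 without the filter and 1377 with only the groups compared, and the NSC count from 729 to 58 with only the groups compared. The day 9 interaction went from 324 to 165 with the pseudocount of 0.1 and 537 without the filter, and the NSC interaction from 274 to 57 with only the groups compared. Without single replicates the KO counts ran from 20 to 112 in mESCs, 273 to 521 at day 7, 449 to 752 at day 9 and 406 to 1352 in NSCs. The count for the mean KO difference went from 1001 to between 807 and 1566. The interaction counts ran from 119 to 253 at day 7, 181 to 360 at day 9 and 146 to 607 in NSCs. Read numbers were not used here, so that no depth limit was set on single values.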
